A study of Danio rerio with 3 samples.

Results

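Of the 25386 genes with values, 631 stood high in nup85;nup133 mutant zebrafish embryos that carry the stage tag 1k and low in both libraries made from embryos at dome. They were chosen by their values: at least 10 FPKM (fragments scaled by transcript length and by library total) in the mutant 1k library, and at most 0.4 of that level in wild-type dome and in mutant dome. The choice used every library of the study, so the levels and ratios of these genes are a description and carry no test. There were 7841 genes with at least 10 FPKM in mutant 1k, and the 631 members make up 8.05% of them.

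Transcripts were measured by RNA sequencing of dechorionated whole embryos of the AB strain, with 1 library per group. The first group was maternal-zygotic (MZ) nup85-/-;nup133-/- embryos at 7 hours post fertilization (hpf) with dome morphology, and the second was the same genotype at 4.3 hpf with the tag 1k. The third was wild type at 4.3 hpf, at dome. Both mutant groups carry mutations in nup85 and nup133, which encode subunits of the Y complex of nuclear pores, in the mother's contribution as well as in the embryo's own genome. The labels do not state the alleles, how many embryos were pooled or from how many clutches. Mutant 1k and wild-type dome share the age but differ in genotype and stage tag. The 7 hpf mutant and wild-type dome share the stage but differ in genotype and age. The mutant libraries share the genotype but differ in age and stage tag. No wild-type library from before dome was analysed here, so the effects of genotype, age and stage cannot be told apart.

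FPKM summed to 431333 in the 7 hpf mutant, 397357 in mutant 1k and 424486 in wild-type dome. The most frequent ratios between low values (0.2 to 0.8 FPKM) lay at 0.99 to 1.05, which is a weak guide to relative depth, and absolute depth is unknown. The targeted gene nup133 stood at 1.91 FPKM in the 7 hpf mutant, 0.31 FPKM in mutant 1k and 11.7 FPKM in wild-type dome. The other targeted gene, nup85, stood at 9.55 FPKM in the 7 hpf mutant, 10.35 FPKM in mutant 1k and 13.2 FPKM in wild-type dome, so its level does not mark the genotype. No difference below has a replicate check.

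A fish egg is loaded by the mother with mRNA that runs the first cell cycles while the embryo's genome is silent. Around the blastula stages this maternal supply is removed in waves, by decay factors that the mother provides and by others, among them the microRNA miR-430, that the embryo makes after its genome switches on. Removal usually begins with shortening of the poly(A) tail by the CCR4-NOT deadenylase. In whole-embryo libraries fewer copies per embryo and a smaller share of a changed total cannot be told apart, because FPKM is relative to the library.

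The members stood at a median of 5.02 FPKM in the 7 hpf mutant, 23.75 FPKM in mutant 1k and 6.70 FPKM in wild-type dome. Between the lower and the upper quartile they lay at 3.25 to 8.30 FPKM in the 7 hpf mutant, 15.8 to 38.8 FPKM in mutant 1k and 4.04 to 10.6 FPKM in wild-type dome. Together they took 1.00% of all FPKM in the 7 hpf mutant, 5.19% in mutant 1k and 1.35% in wild-type dome. None of these genes was listed at 0 in either dome library. At least 5 FPKM was measured for 316 members in the 7 hpf mutant and for 405 members in wild-type dome. No earlier wild-type library was analysed here, so whether a wild-type level fell before dome was not measured.

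**Figure D1:**
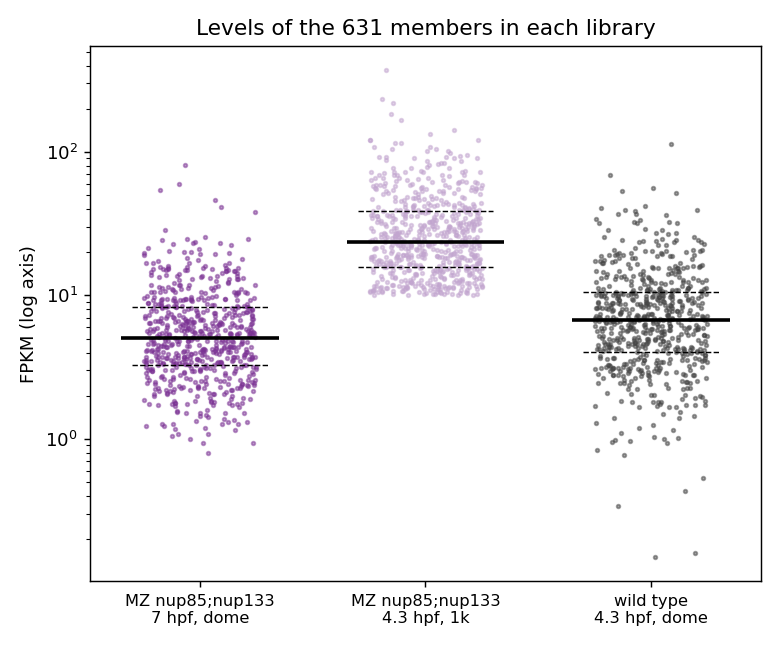
FPKM (log axis) of the 631 members in each library, 1 point per gene. The solid line is the median (5.02 in the 7 hpf mutant, 23.75 in mutant 1k, 6.70 in wild-type dome) and the dashed lines mark the quartiles; mutant 1k is higher for every member because the rule requires it.

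Relative to mutant 1k, the members' median level was 20.6% in the 7 hpf mutant and 28.3% in wild-type dome. In the 7 hpf mutant 414 members were at or under 0.25 of the 1k level, and in wild-type dome 231 were. Of the members, 173 met that limit in both. Over all 7841 genes with at least 10 FPKM in mutant 1k, 784 met it in the 7 hpf mutant and 342 in wild-type dome. The ceilings of the rule favour such genes. All genes with at least 10 FPKM in mutant 1k had medians of 77.7% in the 7 hpf mutant and 84.7% in wild-type dome. Of those 7841 genes, 22.6% met the ceiling in the 7 hpf mutant (1771 genes) and 12.4% met it in wild-type dome (971 genes). The 631 members are 35.6% of the first set and 65.0% of the second. Both ratios are taken to the same mutant 1k library, so a gene whose value is high in that library alone satisfies both.

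**Figure D2:**
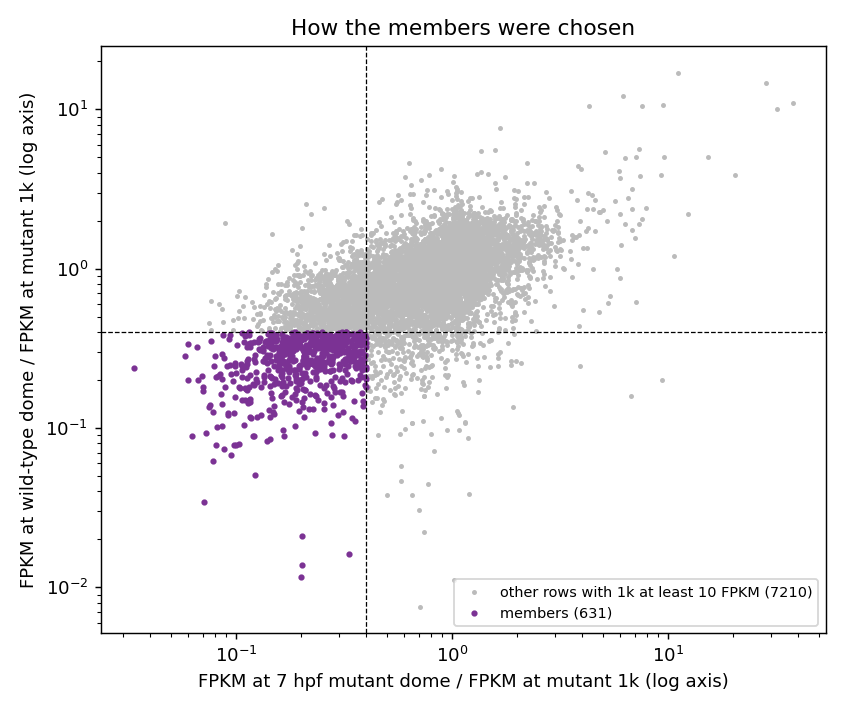
Each point is a gene with at least 10 FPKM in mutant 1k; the x axis gives its FPKM in the 7 hpf mutant and the y axis its FPKM in wild-type dome, both divided by mutant 1k, on log axes. The dashed lines are the ceilings of 0.4, and the 631 members fill the lower left corner beside 7210 other genes.

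Abundant transcripts were members less often than scarce ones. Members made up 11% of genes between 10 and 20 FPKM in mutant 1k (253 of 2308), 8.32% between 20 and 50 FPKM (274 of 3292), 5.53% between 50 and 100 FPKM (86 of 1556) and 2.63% from 100 FPKM (18 of 685). The rule uses the 1k level itself, so this is a description of which genes it took. The annotation gave the type protein_coding to 619 members and no type to 11. The remaining one is buc2l, which is annotated as a long noncoding RNA.

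Values near the thresholds were close together. For wild-type dome, mpped2 lay just inside at 13.8 FPKM against 34.4 FPKM in mutant 1k, and wdtc1 just outside at 10.7 against 26.8 FPKM in mutant 1k. For the 7 hpf mutant, larp4b lay just inside at 10.5 FPKM against 26.3 FPKM in mutant 1k, and scn1a just outside at 6.29 against 15.7 FPKM in mutant 1k. For the minimum, phf20b had 10.1 FPKM and ppp1r16a 9.98 FPKM in mutant 1k. Membership of such genes rests on differences that 1 library cannot resolve.

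The label of the set, maternal transcripts already low at dome, was set beside 2 gene lists. Of the early zygotic list, which holds genes first transcribed by the embryo, 1 of 65 with values reached 10 FPKM in mutant 1k (klf17, 32.02 FPKM) and 0 were members. Of the maternal list, 48 genes reached 10 FPKM in mutant 1k and 4 were members, or 8.33%, close to the 8.05% of all genes. On that list 21 genes (43.8%) met the ceiling in the 7 hpf mutant, where 22.6% of all genes did. In wild-type dome 4 (8.33%) met it, where 12.4% of all genes did. Every other gene on it with at least 10 FPKM in mutant 1k stood above 0.4 of that level in wild-type dome. The 0 of the early zygotic list follows from the minimum in mutant 1k and says nothing more of the members. Of the maternal list the members hold a share near that of all genes, and the name of the set beyond its rule was not tested.

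The nearest such gene was sox19b, a maternal SoxB1 factor of genome activation, at 30.1 FPKM in the 7 hpf mutant, 313 FPKM in mutant 1k and 129 FPKM in wild-type dome. The germ plasm organizer buc stood at 20.4 FPKM in the 7 hpf mutant, 274 FPKM in mutant 1k and 124 FPKM in wild-type dome. The translational regulator cpeb1b stood at 4.6 and 45 FPKM in the mutant libraries at 7 hpf and at 1k, against 22.2 FPKM in wild-type dome. All of these were lowest in the 7 hpf mutant and intermediate in wild-type dome. The genome activator nanog (850.3 FPKM in the 7 hpf mutant, 861 in mutant 1k and 1244 in wild-type dome) was far from the ceilings.

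Oocyte and egg genes were present among the members, but few in number. The deadenylation cofactor btg4, which in mouse brings CCR4-NOT to maternal mRNA, stood at 59.98 FPKM in the 7 hpf mutant, 221 FPKM in mutant 1k and 69.3 FPKM in wild-type dome. The Emi2 gene fbxo43, which in frog and mouse holds the egg in meiosis by restraining the anaphase-promoting complex, stood at 11.8 FPKM in the 7 hpf mutant, 92.2 FPKM in mutant 1k and 33.9 FPKM in wild-type dome. They are the 2 members among 20 genes of the meiosis and oocyte maturation list with at least 10 FPKM in mutant 1k (10%), a share near that of all genes. The list's median log2 ratio of FPKM + 1 was -0.72 for the 7 hpf mutant over mutant 1k and 0.12 for mutant 1k over wild-type dome.

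The gene bmb (brambleberry), a maternal factor that fuses the small nuclei of cleavage-stage zebrafish blastomeres, stood at 20.2 FPKM in the 7 hpf mutant, 94.3 FPKM in mutant 1k and 36.7 FPKM in wild-type dome. The oocyte TATA-binding protein paralogue tbpl2, known from frog and mouse oocytes, stood at 4.37 FPKM in the 7 hpf mutant, 23.4 FPKM in mutant 1k and 8.05 FPKM in wild-type dome. Its widely expressed relative tbp was not a member, at 130.3 FPKM in the 7 hpf mutant, 254 FPKM in mutant 1k and 252 FPKM in wild-type dome. The LIM homeobox gene lhx8a, required for oocyte growth in mouse, stood at 8.06 and 22.7 FPKM in the mutant libraries at 7 hpf and at 1k, against 8.71 FPKM in wild-type dome. The genes bmb, tbpl2 and lhx8a belong to a group of oocyte and egg genes picked after values were seen. Of its 7 genes with at least 10 FPKM in mutant 1k these 3 were members, and the others were not.

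Among 29 genes of the egg coat and oocyte growth list, 1 was a member (3.45%): gdf9, which encodes a growth factor secreted by the oocyte, at 7.3 FPKM in the 7 hpf mutant, 23.9 FPKM in mutant 1k and 9.21 FPKM in wild-type dome. Of the egg coat genes, zp3b stood at 17.9 FPKM in the 7 hpf mutant, 20.4 FPKM in mutant 1k and 41.8 FPKM in wild-type dome. It was highest in wild-type dome.

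Germ line genes gave 3 members of 25 (12%). The Tudor domain gene tdrd6, which shapes germ plasm in zebrafish, stood at 4.16 FPKM in the 7 hpf mutant, 37 FPKM in mutant 1k and 7.6 FPKM in wild-type dome. The germ cell RNA-binding protein gene dazl stood at 13.6 FPKM in the 7 hpf mutant, 36.1 FPKM in mutant 1k and 10.9 FPKM in wild-type dome. The transcript buc2l stood at 4.32 FPKM in the 7 hpf mutant, 72.2 FPKM in mutant 1k and 24.2 FPKM in wild-type dome. In dazl wild-type dome was the lower of the dome libraries, and in tdrd6 and buc2l the 7 hpf mutant was. On the scale of FPKM + 1 the list's median log2 ratio for the 7 hpf mutant over mutant 1k was -1.08, and 12 of 25 genes (48.0%) met the ceiling there.

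**Figure D3:**
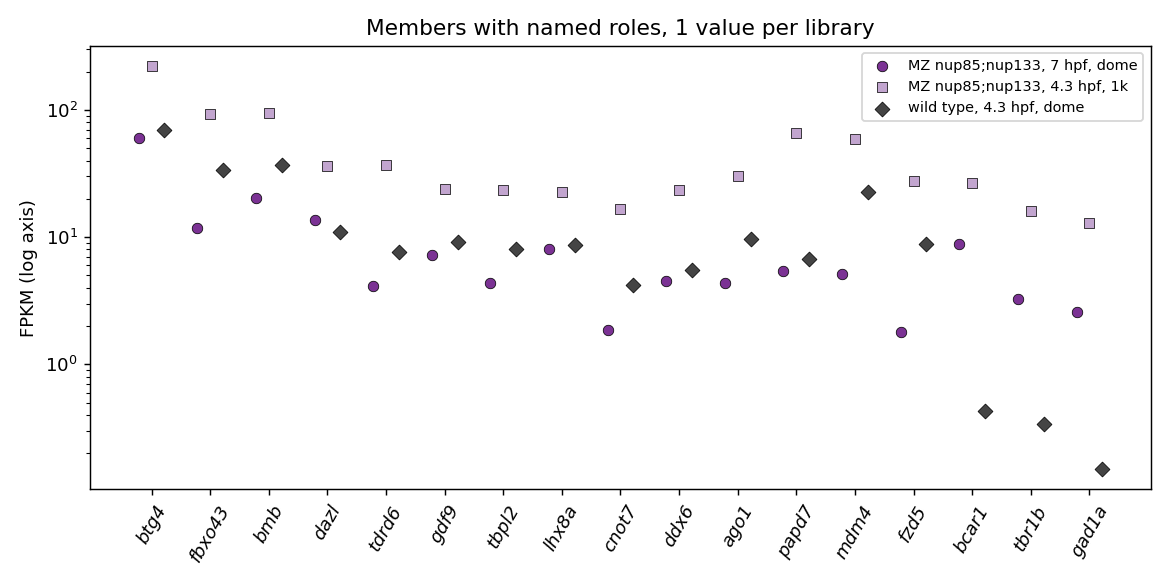
FPKM (log axis) of 17 members in the 7 hpf mutant (circles), mutant 1k (squares) and wild-type dome (diamonds), 1 value per library. For btg4 these are 59.98, 221 and 69.3 FPKM, and for gad1a 2.58, 12.9 and 0.15 FPKM; bcar1, tbr1b and gad1a are the only 3 of the 17 with wild-type dome under 1 FPKM.

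The machinery that removes mRNA was itself represented at about the rate of all genes. Of 85 genes for mRNA storage, tail length and decay, 6 were members (7.06%). The deadenylase subunit gene cnot7 stood at 1.85 FPKM in the 7 hpf mutant, 16.6 FPKM in mutant 1k and 4.2 FPKM in wild-type dome, while its close relative cnot8 stood at 195 FPKM in the 7 hpf mutant, 261 FPKM in mutant 1k and 305 FPKM in wild-type dome. Their order across the libraries differed, with cnot8 highest in wild-type dome. The helicase gene ddx6, which represses stored mRNA and promotes its decapping, stood at 4.55 FPKM in the 7 hpf mutant, 23.4 FPKM in mutant 1k and 5.47 FPKM in wild-type dome. The Argonaute gene ago1, which binds small RNAs, stood at 4.34 FPKM in the 7 hpf mutant, 30.03 FPKM in mutant 1k and 9.61 FPKM in wild-type dome. The gene papd7, a noncanonical poly(A) polymerase, stood at 5.4 FPKM in the 7 hpf mutant, 66.2 FPKM in mutant 1k and 6.7 FPKM in wild-type dome. In all 4 the 7 hpf mutant was the lowest library. By the ratio of mutant 1k to the higher dome library, on the scale of FPKM + 1, papd7 came next after sh2d5 among named members.

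The wider symbol family of RNA-binding and decay genes gave fewer members, 9 of 227 (3.96%), and its median log2 ratios of FPKM + 1 were 0.05 for the 7 hpf mutant over mutant 1k and 0.00 for mutant 1k over wild-type dome. Symbol families were drawn up from name patterns. Among the 9 was lsm1, a subunit of the ring that promotes decapping, at 5.2 FPKM in the 7 hpf mutant, 41.9 FPKM in mutant 1k and 8.51 FPKM in wild-type dome.

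The highest members by FPKM in mutant 1k, after btg4, had varied roles. The DNA helicase gene pif1 stood at 54.3 FPKM in the 7 hpf mutant, 185 FPKM in mutant 1k and 53.6 FPKM in wild-type dome. The gene mylipa, which encodes a ubiquitin ligase that in mammals targets lipoprotein receptors, stood at 19.5 FPKM in the 7 hpf mutant, 143 FPKM in mutant 1k and 39.5 FPKM in wild-type dome. The dome libraries were alike for pif1, and for mylipa the 7 hpf mutant was the lower. The gene phax, an export adaptor of small nuclear RNA, stood at 28.8 FPKM in the 7 hpf mutant, 120.4 FPKM in mutant 1k and 42.3 FPKM in wild-type dome. The kinase gene mknk2a, whose product phosphorylates the cap-binding protein eIF4E, stood at 19.4 FPKM in the 7 hpf mutant, 114 FPKM in mutant 1k and 40.9 FPKM in wild-type dome. The filamin partner fam101b stood at 16.8 FPKM in the 7 hpf mutant, 105 FPKM in mutant 1k and 27.2 FPKM in wild-type dome. Members without a gene name included 3 above 150 FPKM in mutant 1k: zgc:77112 (371), si:ch211-266i6.3 (235) and zgc:56231 (168). In all, 94 members (14.9%) carry only a clone or locus name, against 13.0% of all genes with at least 10 FPKM in mutant 1k.

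Among members with a gene name, sh2d5 had the highest ratio of mutant 1k to the higher dome library on the scale of FPKM + 1. Besides papd7, the others of the 10 highest were ccni2, b4galnt1a, plekhg2, ccdc69, map3k2, fam129bb, ssh2a and creb3l3l. The adaptor gene sh2d5 stood at 4.87 FPKM in the 7 hpf mutant, 77.96 FPKM in mutant 1k and 6.92 FPKM in wild-type dome. The atypical cyclin gene ccni2 stood at 1.45 FPKM in the 7 hpf mutant, 18.6 FPKM in mutant 1k and 1.15 FPKM in wild-type dome. The cofilin phosphatase gene ssh2a stood at 6.21 FPKM in the 7 hpf mutant, 82.7 FPKM in mutant 1k and 11.3 FPKM in wild-type dome. In sh2d5, ccni2 and ssh2a the mutant 1k value was at least 7 times that of either dome library. The kinase gene map3k2 stood at 1.34 FPKM in the 7 hpf mutant, 18.5 FPKM in mutant 1k and 1.72 FPKM in wild-type dome. Its relative map3k3, not among the 10, stood at 1.52 FPKM in the 7 hpf mutant, 17.7 FPKM in mutant 1k and 1.82 FPKM in wild-type dome. With map3k20 they are 3 of the 6 MAP3 kinase genes, a group picked after values were seen, that reached 10 FPKM in mutant 1k. Of all genes at that level 8.05% were members. The glycosyltransferase gene b4galnt1a, which makes complex gangliosides, stood at 1.09 FPKM in the 7 hpf mutant, 15.4 FPKM in mutant 1k and 0.53 FPKM in wild-type dome.

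Gene groups of transcription control differed in their shares. Of 51 homeobox, forkhead, Sox, bHLH and related factors with at least 10 FPKM in mutant 1k, 12 were members (23.5%), and of 92 numbered zinc finger genes 15 were (16.3%), against 8.05% of all genes. The BTB zinc fingers, repressors with a protein-interaction domain, gave 9 of 16, and these 9 are among the 15 numbered zinc finger members. The highest in mutant 1k was zbtb2a at 7.21 FPKM in the 7 hpf mutant, 56.3 FPKM in mutant 1k and 20.3 FPKM in wild-type dome, followed by zbtb34 at 5.42 and 35.6 FPKM in the mutant libraries at 7 hpf and at 1k, against 10.04 FPKM in wild-type dome. In 8 of the 9 the 7 hpf mutant lay below wild-type dome, as it did in 69.7% of all members. Another gene of the family, zbtb14, was not a member, at 50.2 FPKM in the 7 hpf mutant, 91.6 FPKM in mutant 1k and 91.5 FPKM in wild-type dome. The BTB group and every family described from here to the repair helicases was picked after values were seen, unless it is called a list or a symbol family.

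Forkhead factors gave 5 members of 11 (45.5%), against 8.05% of all genes. The gene foxj3 stood at 15.4 FPKM in the 7 hpf mutant, 61.5 FPKM in mutant 1k and 19.6 FPKM in wild-type dome. The paralogues foxp1a and foxp1b stood at 42.99 and 21.3 FPKM in mutant 1k, and at 15.6 and 3.27 FPKM in wild-type dome. The Nodal partner foxh1 was lowest in mutant 1k, at 117 FPKM in the 7 hpf mutant, 52.3 FPKM in mutant 1k and 88.9 FPKM in wild-type dome. The serum response factor, which links actin to transcription, and its coactivators gave 3 members of 5, where 8.05% of all genes were members. The highest in mutant 1k was mkl1b at 4.46 FPKM in the 7 hpf mutant, 47.5 FPKM in mutant 1k and 18.3 FPKM in wild-type dome, where the 7 hpf mutant was far the lower dome library. The others were mkl2a at 9.63 FPKM in the 7 hpf mutant, 34.3 FPKM in mutant 1k and 9.59 FPKM in wild-type dome and mkl1a at 5.78 and 19.4 FPKM in the mutant libraries at 7 hpf and at 1k, against 4.89 FPKM in wild-type dome. Another coactivator, mkl2b, was near level at 13.9 FPKM in the 7 hpf mutant, 13.2 FPKM in mutant 1k and 12.1 FPKM in wild-type dome. Both CREB coactivator genes that reached 10 FPKM in mutant 1k were members. Of these crtc2 stood at 5.72 FPKM in the 7 hpf mutant, 24.4 FPKM in mutant 1k and 5.5 FPKM in wild-type dome.

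Chromatin genes as a symbol family gave 12 members of 148 (8.11%), the rate of all genes. Among them the histone demethylase gene kdm4ab stood at 7.28 FPKM in the 7 hpf mutant, 73.9 FPKM in mutant 1k and 18.2 FPKM in wild-type dome. The Polycomb gene cbx8b stood at 9.13 FPKM in the 7 hpf mutant, 61.9 FPKM in mutant 1k and 19.5 FPKM in wild-type dome. Outside that family, and picked after its values were seen, npat, which drives histone gene transcription at the start of S phase, stood at 15.2 FPKM in the 7 hpf mutant, 69.4 FPKM in mutant 1k and 26.7 FPKM in wild-type dome. The histone chaperone partner hirip3 stood at 46.02 FPKM in the 7 hpf mutant, 133 FPKM in mutant 1k and 51.6 FPKM in wild-type dome.

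Of 44 Rab exchange factors, GTPase-activating proteins and Rab11 partners, which regulate membrane traffic, 13 were members (29.5%), against 8.05% of all genes. The gene micall2b, a Rab effector at junctions, stood at 11.3 FPKM in the 7 hpf mutant, 105 FPKM in mutant 1k and 25.6 FPKM in wild-type dome. Its paralogue micall2a was not a member, at 50.5 FPKM in the 7 hpf mutant, 79.5 FPKM in mutant 1k and 98.1 FPKM in wild-type dome. The Rab11 partner rab11fip4b, of recycling endosomes, stood at 2.49 FPKM in the 7 hpf mutant, 31.3 FPKM in mutant 1k and 8.82 FPKM in wild-type dome. Outside that group, the Ras exchange factor gene sos2 stood at 15.5 FPKM in the 7 hpf mutant, 69.3 FPKM in mutant 1k and 27.4 FPKM in wild-type dome. The genes named here were lowest in the 7 hpf mutant. Over the 13 members of the group the 7 hpf mutant lay below wild-type dome in 9, a share like that of all members (69.7%).

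Spindle and centrosome genes gave 16 members of 74 (21.6%), against 8.05% of all genes. The broader symbol family of centrosome and cilium genes gave 14 of 98 (14.3%), and that of kinesins, dyneins and myosins 5 of 52 (9.62%). The gene gpsm2, which orients the spindle, stood at 15.4 FPKM in the 7 hpf mutant, 91.2 FPKM in mutant 1k and 16.7 FPKM in wild-type dome. The augmin subunit gene haus4, of microtubule branching, stood at 23.3 FPKM in the 7 hpf mutant, 68.2 FPKM in mutant 1k and 20.3 FPKM in wild-type dome. The microtubule-severing enzyme gene katna1 stood at 11.1 FPKM in the 7 hpf mutant, 63.4 FPKM in mutant 1k and 20.6 FPKM in wild-type dome. The midzone gene prc1b stood at 6.55 FPKM in the 7 hpf mutant, 34.01 FPKM in mutant 1k and 6.74 FPKM in wild-type dome. Its paralogue prc1a was highest in the 7 hpf mutant, at 301 FPKM in the 7 hpf mutant, 244 FPKM in mutant 1k and 202 FPKM in wild-type dome. The symbol family of cell cycle genes had few members, 6 of 132 (4.55%), with ccnb1 outside at 555 FPKM in the 7 hpf mutant, 751 FPKM in mutant 1k and 989 FPKM in wild-type dome.

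Regulatory subunits and other regulators of PP2A-type phosphatases gave 5 members of 22. The symbol family of all phosphatases gave 11 of 102 (10.8%), nearer to the 8.05% of all genes. The subunit gene ppp2r2d stood at 14.8 FPKM in the 7 hpf mutant, 72.98 FPKM in mutant 1k and 10.6 FPKM in wild-type dome. The paralogues ppp2r5cb and ppp2r5eb stood at 42.8 and 37.1 FPKM in mutant 1k, and at 7.01 and 8.9 FPKM in wild-type dome. In 4 of the 5, the regulator ppme1 excepted, the 7 hpf mutant lay above wild-type dome, as it did in 191 of all 631 members. The nuclear envelope phosphatase genes ctdnep1a and ctdnep1b were both members and stood close to each other. The first had 8.77 FPKM in the 7 hpf mutant, 66.3 FPKM in mutant 1k and 20.3 FPKM in wild-type dome. The second had 6.51 FPKM in the 7 hpf mutant, 77.2 FPKM in mutant 1k and 16.8 FPKM in wild-type dome. The nuclear envelope sealing factor chmp7, of the ESCRT machinery, stood at 15.3 FPKM in the 7 hpf mutant, 55.2 FPKM in mutant 1k and 20.4 FPKM in wild-type dome. The ESCRT genes gave 4 members of 31 (12.9%). The genes ctdnep1a, ctdnep1b and chmp7 were each picked after their values were seen.

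Cytokine receptors and their adaptors gave 9 members of 24 (37.5%), against 8.05% of all genes. The symbol family of immunity and stress genes, which shares most of these 9, gave 13 of 128 (10.2%), near all genes. The ubiquitin ligase gene traf6, which relays interleukin and Toll signals, stood at 13.2 FPKM in the 7 hpf mutant, 39.4 FPKM in mutant 1k and 13.8 FPKM in wild-type dome. The kinase gene irak1 of the same relay stood at 2.3 FPKM in the 7 hpf mutant, 18.7 FPKM in mutant 1k and 0.95 FPKM in wild-type dome, with wild-type dome the lowest. The feedback inhibitor socs5b stood at 2.4 FPKM in the 7 hpf mutant, 21.7 FPKM in mutant 1k and 3.81 FPKM in wild-type dome. The Janus kinase gene jak1 was not a member, at 28.2 FPKM in the 7 hpf mutant, 29.5 FPKM in mutant 1k and 19.7 FPKM in wild-type dome.

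Mitochondrial carriers gave 7 members of 27 (25.9%), against 8.05% of all genes. That count fell to 4 at a minimum of 20 FPKM in mutant 1k and to 1 at a ceiling of 0.25. The glycine carrier gene slc25a38b stood at 9.09 FPKM in the 7 hpf mutant, 38.1 FPKM in mutant 1k and 9.37 FPKM in wild-type dome. The iron carrier gene slc25a37 (mitoferrin) stood at 5.98 FPKM in the 7 hpf mutant, 29.1 FPKM in mutant 1k and 8.18 FPKM in wild-type dome. A group drawn from name patterns for ULK, PINK1 and mitochondrial quality control gave 4 of 11 (36.4%): opa1, park7, pink1 and vcpip1. Since vcpip1 entered by its name, not all 4 need be mitochondrial genes. The inner membrane fusion gene opa1 stood at 2.05 FPKM in the 7 hpf mutant, 26.8 FPKM in mutant 1k and 9.45 FPKM in wild-type dome. The gene park7, which encodes the redox-sensing protein DJ-1, stood at 12.99 FPKM in the 7 hpf mutant, 43.5 FPKM in mutant 1k and 17.1 FPKM in wild-type dome. The kinase gene pink1, which marks damaged mitochondria, stood at 2.95 FPKM in the 7 hpf mutant, 12.5 FPKM in mutant 1k and 4.94 FPKM in wild-type dome. A symbol family of mitochondrial and energy genes had 3 members of 175 (1.71%): opa1, pfkfb4a and ldha. Its name patterns leave out the 7 member carriers, park7 and pink1, so its share is not a background for theirs.

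Recombination and repair helicases gave 5 members of 17 (29.4%), against 8.05% of all genes. Besides pif1 they were hells, rad54b, rad54l and top3a. The gene hells, a chromatin remodeller needed for DNA methylation, stood at 13.5 FPKM in the 7 hpf mutant, 43.7 FPKM in mutant 1k and 13.4 FPKM in wild-type dome. The paralogues rad54b and rad54l of homologous recombination stood at 36.5 and 35.9 FPKM in mutant 1k, against 8.9 and 14.04 FPKM in wild-type dome. The topoisomerase gene top3a stood at 4.47 FPKM in the 7 hpf mutant, 25.6 FPKM in mutant 1k and 3.64 FPKM in wild-type dome. In pif1 and hells the dome libraries differed little. The symbol family of DNA repair genes gave 6 of 61 (9.84%), close to all genes.

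Signals of the blastula gave 5 members of 49 on their list (10.2%). The Wnt receptor gene fzd5 stood at 1.81 FPKM in the 7 hpf mutant, 27.5 FPKM in mutant 1k and 8.91 FPKM in wild-type dome. The ligand gene gdf6a, of the Bmp class, stood at 1.28 FPKM in the 7 hpf mutant, 12.98 FPKM in mutant 1k and 2.03 FPKM in wild-type dome. The Smad gene smad3b, which carries Nodal signals, stood at 1.75 FPKM in the 7 hpf mutant, 10.5 FPKM in mutant 1k and 0.93 FPKM in wild-type dome. Its relative smad2 was not a member, at 43.98 FPKM in the 7 hpf mutant, 196 FPKM in mutant 1k and 107 FPKM in wild-type dome. The adaptor gene grb2a stood at 5.45 FPKM in the 7 hpf mutant, 22.4 FPKM in mutant 1k and 8.64 FPKM in wild-type dome. In 4 of the 5, smad3b excepted, the 7 hpf mutant was the lowest library.

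As symbol families, kinases and ubiquitin enzymes gave shares nearer to that of all genes than lipid genes did. The protein kinases held 19 members of 170 (11.2%). The energy sensor subunit gene prkaa1 of AMPK stood at 14.4 FPKM in the 7 hpf mutant, 72.7 FPKM in mutant 1k and 23.5 FPKM in wild-type dome. The kinase gene pim3 stood at 9.52 FPKM in the 7 hpf mutant, 64.8 FPKM in mutant 1k and 13.4 FPKM in wild-type dome. The ubiquitin system held 20 of 215 (9.30%), with usp33, a deubiquitinase gene, at 5.94 FPKM in the 7 hpf mutant, 46.5 FPKM in mutant 1k and 16.3 FPKM in wild-type dome. Among the 12 of 85 lipid and sterol genes (14.1%), smpd4, a sphingomyelinase gene, stood at 24.3 FPKM in the 7 hpf mutant, 95.2 FPKM in mutant 1k and 36.5 FPKM in wild-type dome.

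Ion channels gave 7 members of 34 (20.6%), against 8.05% of all genes. That count depended on the minimum in mutant 1k, with 1 member at 20 FPKM and 12 at 5 FPKM. The potassium channel gene kcnk5b stood at 4.81 FPKM in the 7 hpf mutant, 24.8 FPKM in mutant 1k and 9.23 FPKM in wild-type dome. The acetylcholine receptor subunit gene chrnb1 stood at 3.05 FPKM in the 7 hpf mutant, 12 FPKM in mutant 1k and 2.92 FPKM in wild-type dome. Solute carriers gave 13 of 114 (11.4%), and these 13 include all 7 mitochondrial carrier members described above. The glucocorticoid receptor gene nr3c1 was the 1 member of 13 nuclear receptor genes, at 3.05 FPKM in the 7 hpf mutant, 12.9 FPKM in mutant 1k and 3.03 FPKM in wild-type dome. The Hippo pathway, picked after values were seen, gave 4 of 20, with the Yap-binding scaffold gene amot at 5.02 FPKM in the 7 hpf mutant, 30.1 FPKM in mutant 1k and 7.83 FPKM in wild-type dome. These genes share a mutant 1k maximum only because the rule requires it.

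Several groups had no members. Among 78 ribosomal protein genes, 109 splicing factor genes, 30 proteasome genes and 26 nucleoporin genes with at least 10 FPKM in mutant 1k, 0 were members. The median log2 ratio of FPKM + 1 for the ribosomal protein genes was 1.14 for the 7 hpf mutant over mutant 1k, so that group lay in the opposite direction. The splicing, nucleoporin and ribosomal groups were drawn up after values were seen. Lists and symbol families, the clone names left aside, covered 236 members (37.4%) and 2501 (31.9%) of all genes with at least 10 FPKM in mutant 1k.

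**Figure D4:**
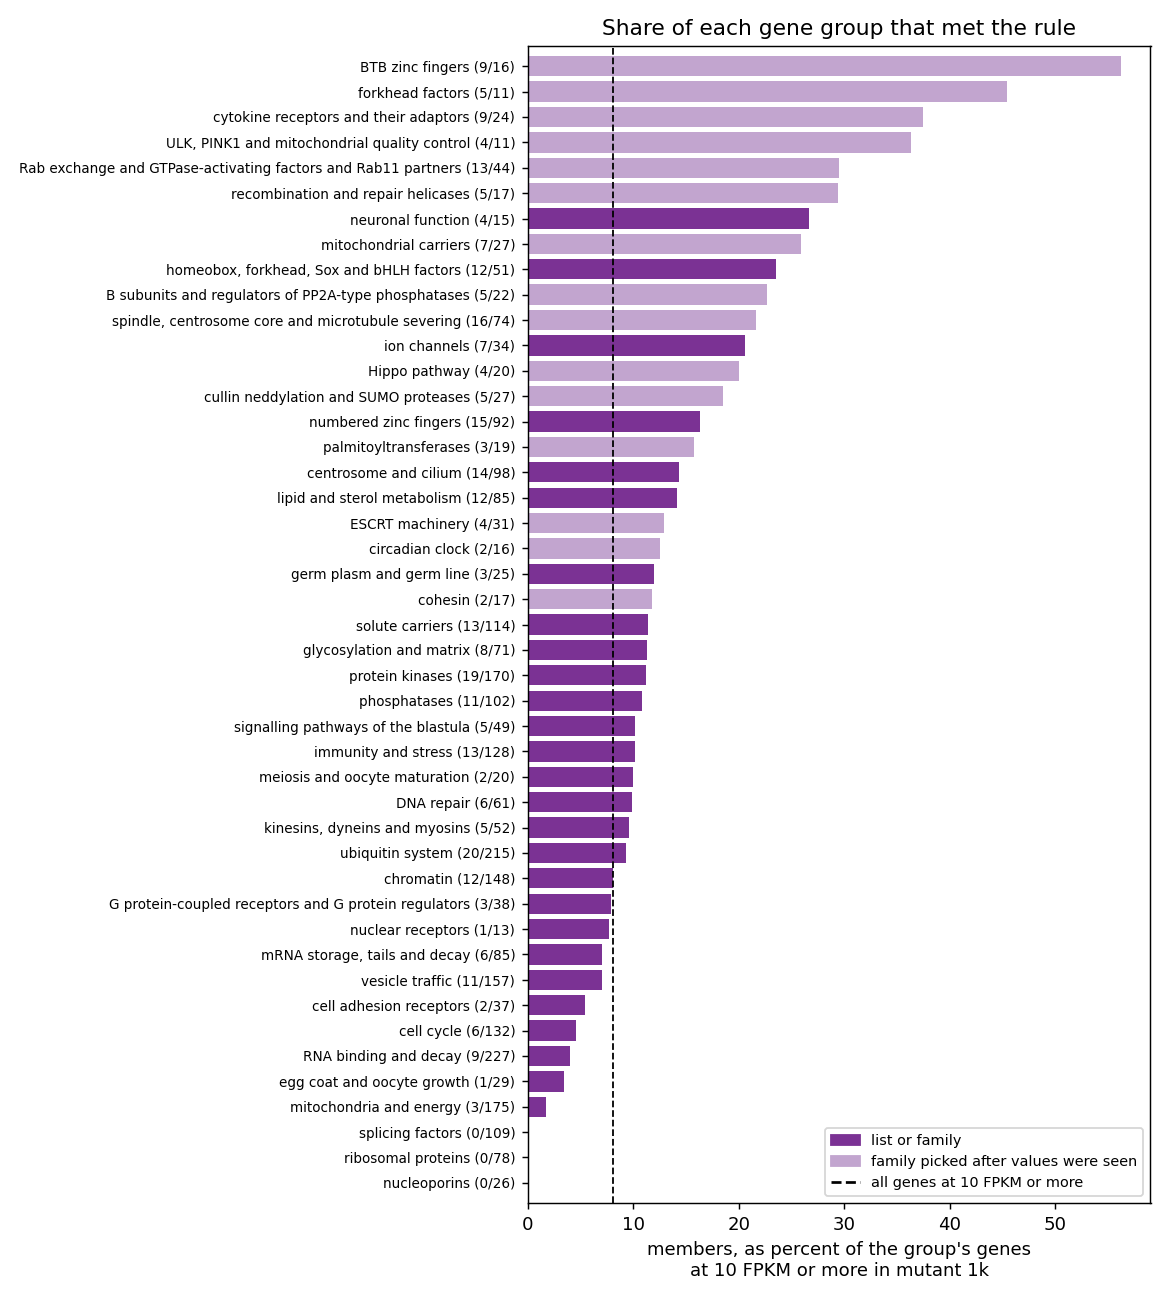
Percent of each shown group's genes with at least 10 FPKM in mutant 1k that are members, with counts after each name; dark bars are lists and symbol families, light bars are families picked after values were seen, and the dashed line is the 8.05% of all genes. BTB zinc fingers (9 of 16) stand at the top and ribosomal protein, splicing factor and nucleoporin genes (0) at the bottom.

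A small set had little transcript in wild-type dome. In 11 members wild-type dome held under 1 FPKM. Any gene with at least 10 FPKM in mutant 1k and so low a value meets the wild-type ceiling. The count over all such genes was not taken. Of these bcar1, an adaptor of integrin signalling, stood at 8.83 FPKM in the 7 hpf mutant, 26.5 FPKM in mutant 1k and 0.43 FPKM in wild-type dome. The neural T-box gene tbr1b stood at 3.26 FPKM in the 7 hpf mutant, 16.1 FPKM in mutant 1k and 0.34 FPKM in wild-type dome. The gene gad1a, which encodes an enzyme that makes the transmitter GABA, stood at 2.58 FPKM in the 7 hpf mutant, 12.9 FPKM in mutant 1k and 0.15 FPKM in wild-type dome. The adhesion gene sdk2b of retinal synapses stood at 2.35 FPKM in the 7 hpf mutant, 11.7 FPKM in mutant 1k and 0.16 FPKM in wild-type dome. In all 4 the 7 hpf mutant held more than wild-type dome. They were named for the highest ratios of the 7 hpf mutant over wild-type dome among members with a gene name. Their order therefore follows from that choice and does not describe the 11. The neuronal list, made of genes of neurons and synapses, gave 4 members of 15 (26.7%). Of the 15, 9 met the ceiling in wild-type dome, where 12.4% of all genes with at least 10 FPKM in mutant 1k did. Besides tbr1b and gad1a the members were nptna and syt11a, and in these 2 the 7 hpf mutant lay below wild-type dome. The gene nptna stood at 6.38 FPKM in the 7 hpf mutant, 25.9 FPKM in mutant 1k and 7.24 FPKM in wild-type dome. For syt11a these were 2.09, 10.6 and 3.5 FPKM. Another of the 15, dscama, was not a member, at 10.9 FPKM in the 7 hpf mutant, 10.8 FPKM in mutant 1k and 0.12 FPKM in wild-type dome.

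The dome libraries can be set beside each other, since the rule caps both but does not fix their order. The 7 hpf mutant was below wild-type dome in 440 of 631 members (69.7%) and above it in 191. It was also below wild-type dome in 61.2% of all 7841 genes with at least 10 FPKM in mutant 1k and in 60.5% of the 7210 that are not members. The median log2 ratio of FPKM + 1, 7 hpf mutant over wild-type dome, was -0.31 over the members and -0.18 over the 7210 other genes with at least 10 FPKM in mutant 1k. The rule bounded both values through the mutant 1k level, so these medians are a description of the libraries. At least 2-fold lower were 71 members, or 11.3%, where 13.5% of all 7841 genes and 13.7% of the 7210 others were. At least 2-fold higher were 10 members, or 1.58%, where 5.98% of all 7841 and 6.37% of the others were. The rule sets the same ceiling on both dome libraries, so it bounds both counts. Why they differ was not tested.

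**Figure D5:**
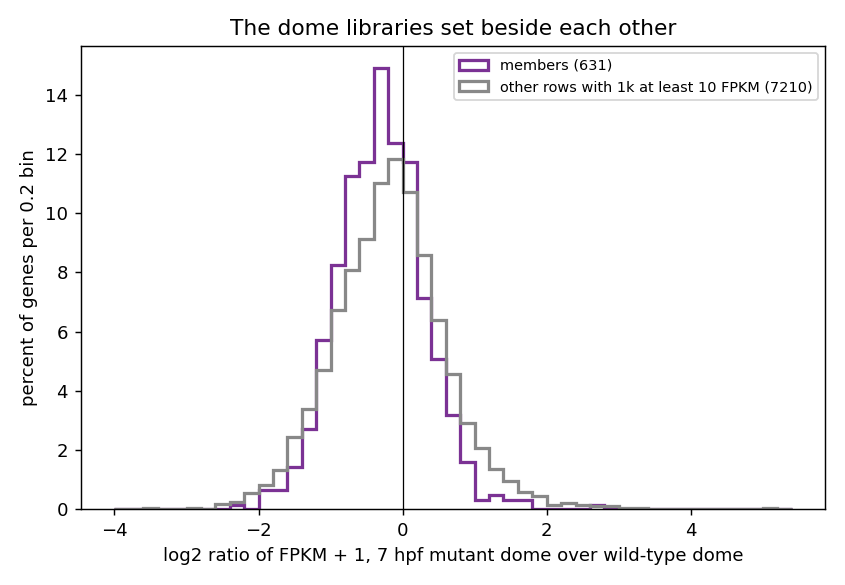
Distribution of the log2 ratio of FPKM + 1, 7 hpf mutant dome over wild-type dome (x axis), as percent of genes per bin of 0.2 (y axis), for the 631 members and the 7210 other genes with at least 10 FPKM in mutant 1k. The members' median is -0.31 and that of the others -0.18, and the distributions overlap over most of their range.

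Among members with a gene name, buc2l lay furthest below wild-type dome in the 7 hpf mutant, with a log2 ratio of -2.25. The p53 inhibitor gene mdm4 had -1.94, at 5.13 FPKM in the 7 hpf mutant, 58.9 FPKM in mutant 1k and 22.5 FPKM in wild-type dome. The other named ones were mkl1b (-1.82), fzd5 (-1.82), opa1 (-1.78) and itprip (-1.68). Furthest above were bcar1 (2.78), tbr1b (1.67), gad1a (1.64), sdk2b (1.53), frmd4ba (1.45) and sox8b (1.38). The polarity gene frmd4ba stood at 19.1 FPKM in the 7 hpf mutant, 55.4 FPKM in mutant 1k and 6.36 FPKM in wild-type dome.

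Paralogues were members together in 9 pairs. Of 579 pairs named a and b with at least 10 FPKM in mutant 1k for both genes, 100 of the paired genes were members (8.64%), and 18.0% of these had a partner that was a member too. The pairs were slc25a51a and b, camsap1a and b, foxp1a and b, ctdnep1a and b, ankib1a and b, fam129ba and fam129bb, mpp6a and b, fgd4a and b, and mkl1a and b. In fam129ba and fam129bb mutant 1k held 59.3 and 57.2 FPKM, and wild-type dome 4.89 and 7.2 FPKM. The labels do not state how reads shared by similar copies were divided, so levels of close paralogues are uncertain. Neighbours on the chromosome were close to all genes: 7.66% of genes in neighbouring pairs were members, and 8.55% of those members had a member as neighbour (18 pairs of 2747).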

How the data were processed

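Per the labels' protocols, RNA was purified on columns from whole dechorionated embryos; poly(A) selection is not stated, and an effect of tail length was not tested. The authors deposited 1 FPKM column per library, per the file headers. Tools listed in the submitters' processing notes were RSEM 1.2.8, Bowtie2 2.2.5 and Trimmomatic 0.36, with genome build GRCz11 and no roles. Of 26437 rows, 1051 had no value and were left out.

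Members and gene lists were chosen with earlier results of these data known. Ratios are log2 of FPKM + 1. No test was possible with 1 library per group. Named genes follow a rule: the 12 highest members in mutant 1k, the 10 steepest, the 6 at each end of the dome comparison, up to 5 per group and those nearest the thresholds; other genes, and all non-members named for comparison, were chosen after their values were seen. A RefSeq gene table of assembly GRCz12tu gave names for 16 symbols turned into dates, gene types (620 members matched) and gene order. The selection step was run on simulated data with planted genes. Without noise those genes met the rule by construction, so this checks the step and not the members. Software: pandas 2.3.3, numpy 2.4.6, matplotlib 3.10.9 (Python 3.11.15). No sequence is printed, since none was used here. Some genes and groups are not reported here.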

Additional observations from a re-analysis of the deposited data

How the results depend on the processing

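The size of the set depends on the scaling and thresholds. The 631 members became 173 and 1036 at ceilings of 0.25 and 0.5, 378 at a minimum of 20 FPKM, and 403 with median-of-ratios scaling; under the other 5 alternatives run there were 528 to 882. The members in a list or symbol family (236) became 68 and 365 at the ceilings of 0.25 and 0.5, 136 at 20 FPKM and 149 under the median of ratios. That scaling moved the median log2 ratio over all genes averaging 1 FPKM or more to -0.01 for mutant 1k over wild-type dome, against 0.16 as deposited, and to 0.02 for the 7 hpf mutant over mutant 1k, against -0.21.

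For the 7 hpf mutant over wild-type dome, the median log2 ratio over all genes averaging 1 FPKM or more moved with scaling. That median was -0.05 as deposited, -0.46 when scaled on proteasome genes, -0.07 when scaled to equal sums and 0.02 under the median of ratios. The members' median for the same ratio (-0.31) kept its sign in all 12 alternatives. It was -0.20 at a ceiling of 0.25, -0.20 at 5 FPKM, -0.42 at 20 FPKM, -0.54 when scaled on proteasome genes, -0.19 with a pseudocount of 5 and, chosen after seeing the data, -0.48 in the members above the median 1k level. The 71 members at least 2-fold lower became 1 at 4-fold, 13 and 141 at the ceilings of 0.25 and 0.5, 34 with median-of-ratios scaling, 205 with proteasome scaling and 14 with a pseudocount of 5. The 10 at least 2-fold higher became 1 at 4-fold, 3 and 24 at the ceilings of 0.25 and 0.5, 22 at 5 FPKM, 3 at 20 FPKM, 6 under the median of ratios, and 19 and 2 with pseudocounts of 0.1 and 5. Of 31 group counts, 31 moved by over 1.5 times at a ceiling of 0.25, 18 at 20 FPKM, 13 with median-of-ratios scaling, 10 at a ceiling of 0.5 and 1 at 5 FPKM. The causes were not tested. No paired analysis was possible because each group has 1 library. The planned comparison of sequence features was not run, since no sequence table was used here. Depth is unknown, so no counting interval is given.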
